A study of Mus musculus with 8 samples.

Results

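Interleukin 15 and 8 cytokine receptor genes were examined in mRNA of lung neutrophils during *Streptococcus pneumoniae* (SP) pneumonia. The genes were Il15, Il15ra, Il2ra, Il2rb, Il2rg, Il4ra, Il7r, Il21r and Il13ra1, so that 9 of the 24625 rows of the deposited table were described. The row of a gene was chosen by its mean over all 8 arrays where several rows carried a symbol, and each of the 9 genes had 1 row. The list was drawn up with the differences between SP and PBS already known, so the values below describe these genes and their adjusted p-values are not independent evidence. Wild type mice received SP or phosphate-buffered saline (PBS) into the left lung through the trachea, in a volume of 2.3 µl for each g of mouse, and lungs were collected 24 h later. All mice were 6 to 12 weeks old by the labels, whereas the methods give a narrower range of ages. By the methods they came from colonies founded with females of the C57BL/6J strain and were matched for sex, and the sex of the mice studied is not given. Neutrophils were pulled from digested lungs with beads against Ly6G, and the purity of the isolation was examined in the pneumonia samples alone. There were 4 PBS and 4 SP samples with 1 array each. The labels do not say whether each came from its own mouse, but the legends of the study describe each sample as that of a mouse.

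The receptors of this family are built from a few shared parts. The common gamma chain, encoded by Il2rg, signals for interleukins 2, 4, 7, 9, 15 and 21, each of which also binds a chain of its own. Interleukins 2 and 15 share the beta chain (Il2rb) and differ in their alpha chains (Il2ra and Il15ra), and the alpha chain of interleukin 15 can hold the cytokine on 1 cell and present it to another. Interleukin 4 can also use Il13ra1 in place of the gamma chain, which makes a receptor for interleukin 13 as well. Neutrophils are known to respond to interleukins 15 and 4, and the family is best known for its part in the survival and growth of lymphocytes.

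Values are log2 expression, in which a difference of 1 unit is 2-fold. They can be compared between arrays for a gene, but not between genes, because rows differ in their probes. Differences were called where limma, fitted over all rows, gave an adjusted p up to 0.05. Neutrophil markers were bright on every array. The summed signal of 9 of them, on the log2 scale, lay between 15.85 and 16.04 in PBS and between 15.33 and 16.01 in SP, and 3 of the 9 were called, all lower. A row for Ly6g itself was not matched. Array medians lay between 6.06 and 6.2 in PBS and between 5.78 and 5.91 in SP. Centring the arrays on their medians raised all differences by 0.28, and the median difference over rows went from 0.10 to 0.38. RNA of other lung cells was present in these preparations, and fewer cells of a type and less RNA per cell cannot be told apart in them.

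Expression rose for 6 of the 9 genes and fell for none. Il15ra, Il7r, Il2rg, Il2ra and Il21r rose at least 2-fold, Il4ra rose by less, and Il2rb, Il15 and Il13ra1 were not called. Over all rows, 44.1% were called, 21.5% were called higher, and 6.37% were called at least 2-fold higher in SP. The groups did not overlap for 5 of the 9 genes, against 49% of all rows. The genes were listed with these differences in view, so nothing is read from their counts against those shares. The median difference was 1.5 for the 9 genes and 0.10 for all rows.

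**Figure D1:**
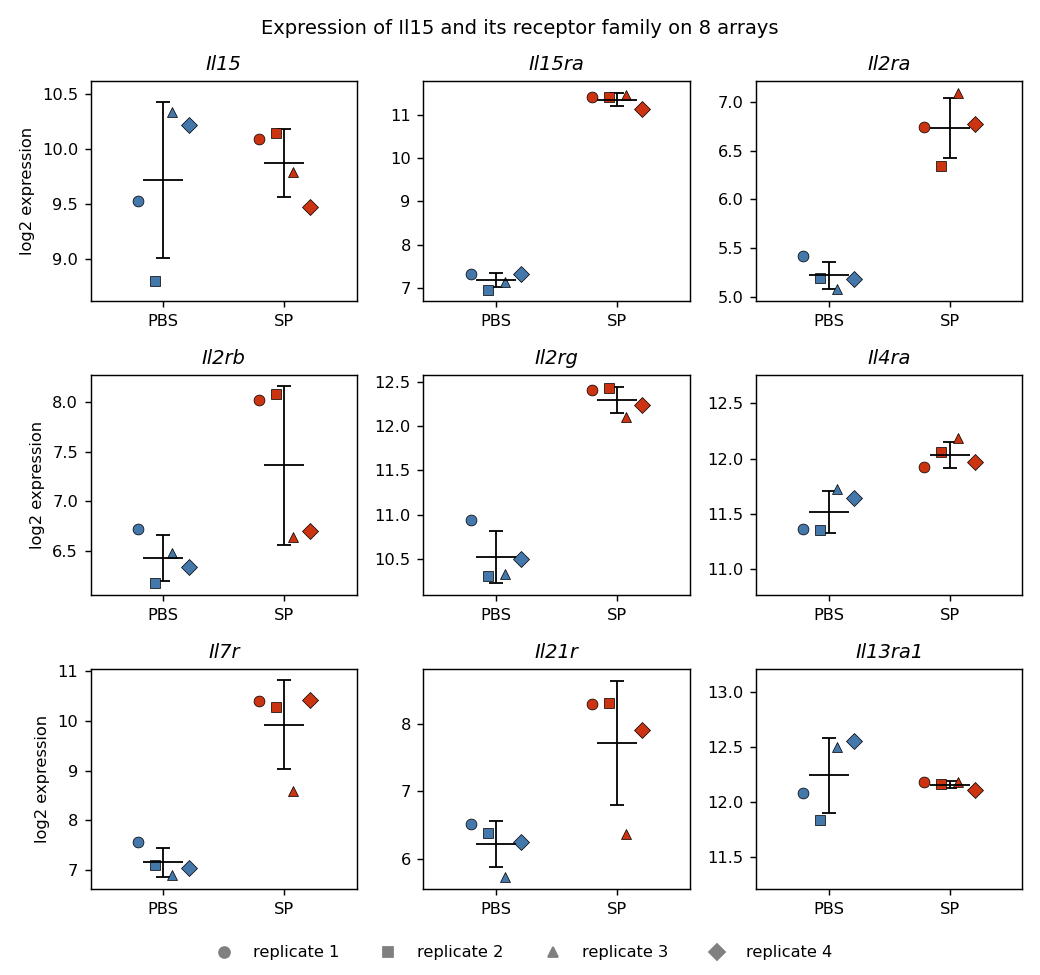
Log2 expression of the 9 genes on each array, PBS in blue and SP in red, with the marker shape giving the replicate number, the horizontal bar the mean and the whiskers the SD (n = 4 per group); each panel has its own scale. Il15ra separated the groups most widely, Il15 and Il13ra1 overlapped between groups, and SP replicate 3 (triangle) was the lowest SP array for Il2rb, Il7r and Il21r.

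Il15, a cytokine that supports NK cells and memory T cells, was the ligand among the 9 genes. Its PBS values were 9.53, 8.80, 10.33 and 10.22, and its SP values were 10.09, 10.14, 9.79 and 9.47. The PBS arrays spread more widely than the SP arrays, with replicate 2 lowest, and the SP values lay inside the PBS range. The means were 9.72 ± 0.71 (SD, n = 4) in PBS and 9.87 ± 0.31 (SD, n = 4) in SP. The difference of 0.15 log2 units had a 95% interval from -0.61 to 0.92 and was not called (limma adjusted p = 0.705), and it turned to -0.15 without PBS replicate 2 and was 0.44 with centred arrays. Differences within this interval could not be told apart from the spread between arrays.

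Its private receptor chain gave the largest difference of the 9 genes. Il15ra encodes the alpha chain, which binds interleukin 15 with high affinity. Its values were 7.32, 6.96, 7.14 and 7.31 in PBS and 11.41, 11.41, 11.47 and 11.13 in SP. All SP arrays lay far above all PBS arrays, and the arrays of a group were close to each other. Il15ra rose 18.0-fold, from 7.18 ± 0.17 to 11.36 ± 0.15 (SD, n = 4), with a log2 difference of 4.17 (standard error 0.11, limma adjusted p = 4.37e-07). Thus the ligand stayed within its PBS range while the chain that binds it was upregulated on every SP array.

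Il2ra, the alpha chain of the interleukin 2 receptor known as CD25, had values of 5.42, 5.20, 5.09 and 5.19 in PBS and 6.74, 6.34, 7.09 and 6.77 in SP. It rose 2.85-fold, from 5.22 ± 0.14 to 6.73 ± 0.31 (SD, n = 4, limma adjusted p = 0.000142). The groups did not overlap, and SP replicate 3 was the highest array. The PBS values were not far above 3 Y-linked rows (4.33 to 4.90 over all arrays), which were dim on every array and serve as a rough guide to background. In the RefSeq annotation of GRCm38.p6, Il2ra and Il15ra are next to each other among protein-coding genes on chromosome 2. The Il2ra and Il15ra rows correlated at r = 0.97 over the 8 arrays, which mostly reflects the 2 groups.

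The shared chains differed from each other. Il2rg, the common gamma chain without which the receptors of interleukins 2, 7, 9, 15 and 21 cannot signal in full, had values of 10.94, 10.30, 10.33 and 10.50 in PBS and 12.41, 12.43, 12.11 and 12.24 in SP. All SP values lay above all PBS values. It rose 3.43-fold, from 10.52 ± 0.30 to 12.30 ± 0.15 (SD, n = 4, limma adjusted p = 6.11e-05).

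Il2rb, the beta chain that interleukins 2 and 15 share, had values of 6.72, 6.17, 6.48 and 6.33 in PBS and 8.02, 8.09, 6.64 and 6.70 in SP. The SP arrays fell into a high pair, replicates 1 and 2, and a pair within the PBS range, replicates 3 and 4. The means were 6.42 ± 0.23 in PBS and 7.36 ± 0.80 in SP (SD, n = 4). The difference of 0.94 was not called (limma adjusted p = 0.0621), although leaving out SP replicate 3 (1.18, 0.026) or SP replicate 4 (1.16, 0.0327) gave a call, with adjusted p from 0.0032 to 0.145 over 16 alternatives.

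The summed markers of NK and T cells, which carry the beta chain, followed the same split of the SP arrays. The summed signal of 9 NK cell markers was 10.26 and 10.43 on SP replicates 1 and 2 and 9.21 and 9.18 on SP replicates 3 and 4, against 8.83 to 9.54 in PBS. Nkg7 was the largest part of the NK sum on SP replicates 1 and 2, at 9.2 and 9.47, and lay at 7.09 and 7.47 on replicates 3 and 4. For 9 T cell markers the summed signal was 9.68, 9.92, 8.75 and 8.75 in SP replicates 1 to 4 and 8.52 to 9.21 in PBS. Klrk1 and Gzmb of the NK list and Cd3d and Cd5 of the T cell list were called higher, and the other 14 genes were not called. Among defining markers, Ncr1 lay between 4.80 and 5.65 and Klrb1c between 4.57 and 5.07 on all arrays, near the Y-linked rows, whereas Cd3e reached 7.34 and 7.5 on SP replicates 1 and 2 and lay at 5.66 and 6.23 on replicates 3 and 4. Not every marker followed the split, since Cd3d was highest on SP replicate 3 (6.22) and Klrk1 was above all PBS arrays on each SP array. The part of these cells in the Il2rb values was not tested.

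**Figure D2:**
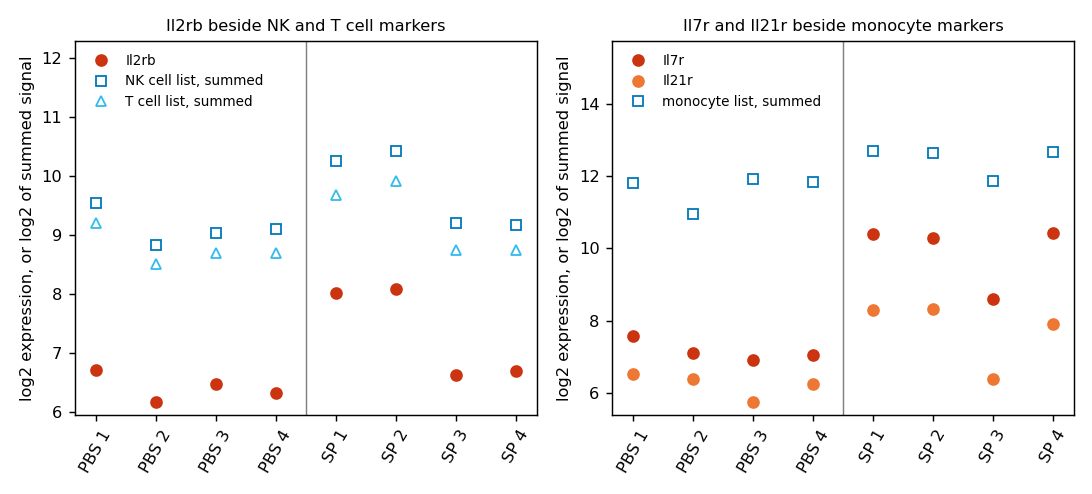
Left, log2 expression of Il2rb (red) on each array beside the log2 of the summed signal of the NK and T cell marker lists (blue); right, Il7r (red) and Il21r (orange) beside the summed monocyte and macrophage list (blue). Il2rb and both lymphocyte lists were highest on SP replicates 1 and 2, whereas Il7r, Il21r and the monocyte list had their lowest SP value on replicate 3.

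The receptors of interleukins 7 and 21 shared another pattern. Il7r encodes the chain that binds interleukin 7 and, with Crlf2, thymic stromal lymphopoietin. Its values were 7.57, 7.10, 6.91 and 7.04 in PBS and 10.39, 10.28, 8.59 and 10.42 in SP. The groups did not overlap, and SP replicate 3 stood well below the other SP arrays. Il7r rose 6.81-fold, from 7.15 ± 0.29 to 9.92 ± 0.89 (SD, n = 4, limma adjusted p = 0.000874), and the log2 difference of 2.77 was 3.21 without SP replicate 3.

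Il21r, the private chain of interleukin 21, a cytokine of helper T cells, had values of 6.51, 6.39, 5.73 and 6.25 in PBS and 8.29, 8.31, 6.37 and 7.91 in SP. SP replicate 3 again lay lowest, within the PBS range. Il21r rose 2.83-fold, from 6.22 ± 0.34 to 7.72 ± 0.92 (SD, n = 4), and the log2 difference of 1.5 was called narrowly (limma adjusted p = 0.0208). The call was lost without PBS replicate 3 (1.34, 0.052), SP replicate 1 (1.31, 0.0582) or SP replicate 2 (1.30, 0.0533), and under the test that the methods name, without limma's shared variance (adjusted p = 0.0521). The difference was 1.95 without SP replicate 3 (0.000293).

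SP replicate 3 was not low throughout. Relative to the mean of the other SP arrays it was lower by -1.78 log2 units for Il7r and -1.80 for Il21r, against a median of -0.08 over the 1568 rows that rose at least 2-fold. Only 1.47% of those rows had a value as low as that of Il7r and 1.28% one as low as that of Il21r. Il15ra (0.15), Il2ra (0.47) and Il4ra (0.21) were higher on this array than on the other SP arrays. SP replicate 3 was the lowest SP array in 37.7% of the rows that rose at least 2-fold. PBS replicate 3 was also the lowest PBS array for both Il7r and Il21r. It lay at 6.91 against 7.04 to 7.57 for Il7r, and at 5.73 against 6.25 to 6.51 for Il21r. Over all rows, the deviations of PBS and SP replicate 3 from their groups correlated at r = 0.35. Samples with unlike replicate numbers were not compared in this way, and what PBS and SP replicate 3 shared was not tested.

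Monocyte and macrophage markers were also lowest on SP replicate 3 among the SP arrays, as were the summed markers of B cells, dendritic cells, eosinophils, alveolar macrophages, endothelium and fibroblasts. The summed signal of 6 such markers was 12.71, 12.65, 11.87 and 12.68 in SP replicates 1 to 4, and 10.95 to 11.92 in PBS. Ccr2 and Adgre1 were called higher, with Adgre1 at 11.36, 11.10, 10.14 and 11.10 in SP, and Csf1r, Cx3cr1 and C1qa were not. Csf1r, which defines these cells, lay between 9.81 and 11.57 on all arrays. Neutrophil granule genes went the other way on SP replicate 3, with Camp at 10.94 there and between 7.60 and 8.17 on the other SP arrays, and Ltf at 12.10 against 9.69 to 10.22. B cells also carry Il21r, and their summed signal was lower in SP, from 9.03 to 10.26 against 10.79 to 11.75 in PBS. Of 6 markers, 5 were called, all at least 2-fold lower. The other, Fcer2a, differed by 0.82 and was not called (limma adjusted p = 0.0719). Summed T cell markers were at 9.68, 9.92, 8.75 and 8.75 in SP replicates 1 to 4, so that they were low on replicate 4 as well, unlike Il7r and Il21r. The part of any of these cells in the Il7r and Il21r values was not tested.

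The chains that bind interleukins 4 and 13 changed little. Il4ra, the alpha chain of the interleukin 4 receptor, had values of 11.36, 11.35, 11.72 and 11.64 in PBS and 11.92, 12.06, 12.19 and 11.97 in SP. All SP values lay above all PBS values, by a small margin. It rose 1.43-fold, from 11.52 ± 0.19 to 12.04 ± 0.12 (SD, n = 4, limma adjusted p = 0.00671). The log2 difference of 0.52 was between 0.26 and 0.80 over 16 alternatives and was called in each.

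Il13ra1, which pairs with Il4ra and binds interleukin 13, had values of 12.08, 11.84, 12.50 and 12.55 in PBS and 12.18, 12.16, 12.18 and 12.11 in SP. The SP arrays lay close together, inside the PBS range. The means were 12.24 ± 0.34 and 12.16 ± 0.03 (SD, n = 4), and the difference of -0.08, which turned to 0.20 with centred arrays, was not called (limma adjusted p = 0.665, 95% interval from -0.44 to 0.28). Il4ra and Il21r are neighbours among the protein-coding genes of chromosome 7 in the same annotation, and their rows correlated at r = 0.49 over the 8 arrays. Il15 and Il13ra1, neither of them called, correlated at r = 0.86 over the 8 arrays, with the lowest value of each on PBS replicate 2.

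**Figure D3:**
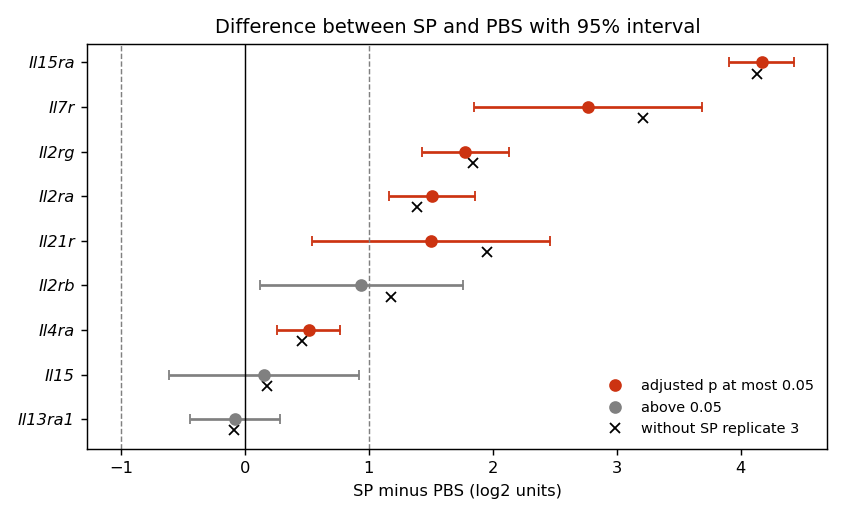
Difference between SP and PBS in log2 units for each gene, with its 95% interval from limma (n = 4 per group), in red where the adjusted p was at most 0.05 and grey otherwise; crosses give the difference without SP replicate 3 and dashed lines mark a 2-fold difference. Il15ra stood highest at 4.17, the intervals of Il7r and Il21r were wide, and those of Il15 and Il13ra1 included 0.

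In order of their differences the genes were Il15ra (4.17), Il7r (2.77), Il2rg (1.78), Il2ra (1.51), Il21r (1.5), Il2rb (0.94), Il4ra (0.52), Il15 (0.15) and Il13ra1 (-0.08). Neighbours in this order were compared within arrays, as a description. The rise of Il15ra was greater than that of Il7r by 1.40 (95% interval from 0.16 to 2.65), and that of Il7r was greater than that of Il2rg by 0.99 (0.03 to 1.95). The intervals of the other 6 neighbouring pairs included 0, from Il2rg and Il2ra (0.27, -0.31 to 0.85) to Il15 and Il13ra1 (0.24, -0.34 to 0.82). Hence the lower ranks are not settled by these arrays.

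The stretches around the start sites of the genes were searched for the kinds of element bound by factors of inflammation, and the matches are shown because they lie before genes of the list. RefSeq sequences of GRCm38.p6, from 250 bases before to 50 bases after a start, were matched for 7 of the 9 genes, with 2 starts for Il15ra. Il15 and Il2rb had no entry. The letters searched on both strands were GAAANNGAAA for the core of an interferon-stimulated response element, TTCNNNGAA for the GAS element of STAT factors and GGGANNNNCC for an NF-κB-type element. Among all 32851 stretches of this length, 3.44%, 8.3% and 20.7% held these letters. The first was in none of the 8 stretches of the family, the second in 1 (Il7r) and the third in 3 (Il2ra, Il21r and Il13ra1). In the following windows of 60 bases, written along the strand of the gene, capitals mark the match, which lies on the opposite strand for Il21r and Il13ra1 and so reads there as its reverse complement. It ends 134 bases before the start for Il7r (chr15:9529985-9530044, minus strand), 192 for Il2ra (chr2:11642566-11642625, plus strand), 222 for Il21r (chr7:125603179-125603238, plus strand) and 28 for Il13ra1 (chrX:36112046-36112105, plus strand).
Il7r: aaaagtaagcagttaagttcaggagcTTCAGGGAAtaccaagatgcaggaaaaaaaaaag
Il2ra: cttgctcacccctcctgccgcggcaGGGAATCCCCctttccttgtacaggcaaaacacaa
Il21r: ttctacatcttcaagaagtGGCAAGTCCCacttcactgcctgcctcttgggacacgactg
Il13ra1: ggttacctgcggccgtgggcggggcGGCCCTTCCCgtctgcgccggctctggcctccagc

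Of the genes not called, Il15 and Il2rb had no stretch to search, so whether the matches go with the readout cannot be told. Il13ra1, which was not called, held an NF-κB-type match, and neither stretch of Il15ra, the gene with the largest rise, held any of the 3 motifs. A match is a stretch of letters and not a measured site.

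The other genes of the pathway were described from 6 lists, in all 49 genes, each with a row. Of these, 19 were called higher and 8 lower, 10 and 5 of them at least 2-fold, with a median difference of 0.28. Over all rows, 21.5% were called higher and 22.6% lower, or 6.37% and 11.3% at 2-fold.

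The other ligands of these receptors were dim. Il2, Il4, Il9, Il13, Il21 and Tslp lay between 4.11 and 4.98 on all arrays, about the range of the Y-linked rows. Il9 was called higher by 0.27 and Il7 lower by -0.56 (from 5.35 to 5.55 in PBS and 4.77 to 4.94 in SP), and none of the 7 ligands differed 2-fold. The Y-linked rows were themselves higher in SP by 0.12 to 0.19, with Kdm5d called (limma adjusted p = 0.0497), so differences of this size occurred among dim rows. Il2 and Tslp differed by 0.20 and 0.16 and were not called (limma adjusted p = 0.143 and 0.119).

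Of the other receptor chains, Crlf2 was called at 2-fold. It encodes the chain that forms the receptor for thymic stromal lymphopoietin together with Il7r. Its values were 9.01, 7.99, 9.65 and 9.49 in PBS and 10.14, 10.33, 10.57 and 10.22 in SP. All SP values lay above all PBS values, and PBS replicate 2 was lowest. The log2 difference was 1.28 (limma adjusted p = 0.0153) and 0.93 without PBS replicate 2 (0.0049). Unlike Il7r, Crlf2 was highest on SP replicate 3. Il9r, the private chain of interleukin 9, lay between 4.90 and 5.25 on all arrays and had a difference of 0.00, and Il13ra2, a decoy chain for interleukin 13, was at 4.88 to 5.26, near the Y-linked rows, with a called difference of 0.26 (limma adjusted p = 0.0145).

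Among the kinases and STAT factors, 4 of 9 genes were called, all higher, a share close to the 44.1% of all rows that were called. Jak3 binds the gamma chain, and Jak1 its signalling partner, which for interleukins 2 and 15 is the beta chain. Jak1 and Jak3 were not called, with differences of 0.29 and -0.09 (limma adjusted p = 0.187 and 0.422). Jak3 turned to 0.19 with centred arrays and Jak1 was called there (0.57, 0.0232). Jak2 (1.74), which serves the interferon gamma receptor among others, rose at least 2-fold, and Tyk2 (0.94) and Stat5a (0.91) rose by less. Stat5a, a main carrier of interleukin 2, 7 and 15 signals, was at 8.73, 8.54, 9.41 and 8.60 in SP and 7.56 to 8.12 in PBS. Its close relative Stat5b differed by -0.38 and Stat6, the carrier of interleukin 4 signals, by 0.31, neither of them called (limma adjusted p = 0.182 and 0.077). Stat3 differed by 0.15 (0.266), and by -0.09 after another quantile normalization. With centred arrays it was called higher (0.44, limma adjusted p = 0.0198).

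Of 9 adaptors and phosphatases, 5 were called higher and 1 lower. Gab2, a docking protein of cytokine receptors, rose by 1.11 on the log2 scale (limma adjusted p = 0.00189), or by 0.95 without PBS replicate 2. Pik3r1, a regulatory subunit of phosphoinositide 3-kinase, fell by 0.54. Akt1 (-0.07) and Pik3cd (-0.25) were not called (limma adjusted p = 0.539 and 0.379), and both turned positive with centred arrays (0.21 and 0.03). After another quantile normalization Akt1 was called lower (-0.27, limma adjusted p = 0.0202).

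Some feedback inhibitors and known STAT5 targets gave large rises, and others were not called or fell. Of 11, 5 were called higher and 1 lower, and 4 rose at least 2-fold. Socs1, an inhibitor of JAK kinases, rose by 4.67 log2 units, from 5.51 to 6.44 in PBS to 10.57 to 11.17 in SP (limma adjusted p = 4.79e-06). Cish, an inhibitor that STAT5 induces, was at 8.80, 8.65, 8.71 and 8.83 in PBS and 11.13, 11.35, 11.44 and 10.93 in SP. Its rise of 2.46 was seen on every SP array. Bcl2l1, a survival factor, rose by 1.27 and Socs3, an inhibitor of receptors that signal through STAT3, by 1.24. Socs2 fell by 0.96. Mcl1, Osm and Pim1 differed by 0.25, 0.37 and 0.69, and Bcl2 and Myc by -0.47 and -0.51. None of these was called (limma adjusted p = 0.150, 0.173, 0.0729, 0.0697 and 0.149).

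Genes known to respond to interleukin 4 through STAT6, mostly in macrophages, went both ways. Of 10, 2 were called higher and 5 lower, all at least 2-fold. Arg1, which breaks down arginine, rose by 4.63, with 4.67 to 4.94 in PBS and 9.77, 9.01, 8.16 and 10.73 in SP, and the chemokine Ccl17 rose by 1.69. The PBS values of Arg1 lay about the range of the Y-linked rows, so its fitted difference is not an exact fold and may understate the rise. Macrophage and dendritic cell lectins were lower, namely Mrc1 (-2.70), Mgl2 (-2.45), Cd209a (-1.98) and Clec10a (-1.05), as was the secreted protein Retnla (-1.84). The SP values of Mgl2 (4.21 to 5.02) and Clec10a (4.36 to 5.06) also lay about that range, and their falls may be understated likewise. Fcer2a (0.82) and Ccl22 (0.38) were not called (limma adjusted p = 0.0719 and 0.243). The summed signal of 5 alveolar macrophage markers was lower alongside, from 11.06 to 11.71 in SP and 12.34 to 13.05 in PBS. It rests mainly on Car4 and Ear2, which with Pparg were the 3 called. Marco and Siglecf were not called (limma adjusted p = 0.327 and 0.0841). The part of alveolar macrophages in these differences was not tested.

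**Figure D4:**
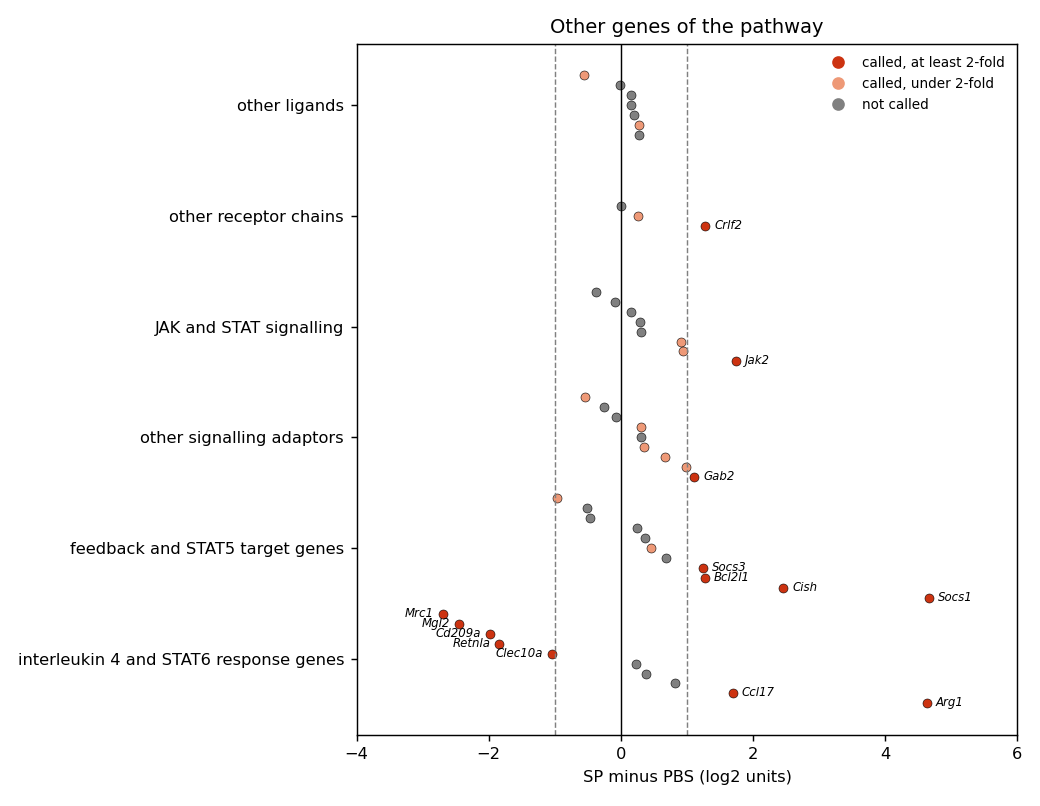
Difference between SP and PBS in log2 units of 48 of the 49 other pathway genes, 1 point per gene, by list; dark red marks calls of at least 2-fold, light red smaller calls and grey genes not called, and dashed lines mark 2-fold. Ligands clustered around 0, the feedback list reached 4.67 (Socs1), and the interleukin 4 response list spread to both sides.

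The rows most like Il15ra over the 8 arrays, of 19835 other genes with a symbol, were Tifa, Ifi35 and Mlkl, each at r = 0.999, with differences of 4.12, 2.51 and 3.59 log2 units. With these, 993 genes had r above 0.95, since the contrast of the groups dominates such coefficients. The rows most like Il15 were Arhgap25 (0.990), Tmed8 (0.989) and Trpm2 (0.976), with differences between 0.11 and 0.12. Only 13 genes had r above 0.95 with Il15.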

How the data were processed

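Messenger RNA of lung neutrophils from 4 PBS and 4 SP samples was measured on Affymetrix Mouse Gene 1.1 ST arrays. The deposited log2 values had been made by the authors by robust multi-array averaging, in which probe signals were adjusted for their sequence and GC content, arrays were quantile normalized, and probesets were summarised per gene or transcript by median polish. A genome build for the values is not given in the sources used here. Such values are relative within an array, and bright signals may be compressed. Symbols came from RefSeq genes of GRCm38.p6, matched by unversioned accession (19915 of 24625 rows, 19836 symbols). SP and PBS were compared over all rows with limma (version 3.58.1, R 4.3.3) in a two-sided test with no covariate, adjusted after Benjamini and Hochberg, at 0.05 and, where stated, 2-fold. The test was tried on simulated data first. Marker lists were summed as linear signal. The genes, lists and motifs were chosen with earlier results of these data known. Genes named were the 9 genes, the largest calls and brightest uncalled genes of each pathway list, Jak1, Jak3, and the 3 rows most like Il15ra and Il15; other genes named from the lists, and the markers, were chosen after their values were seen. Alternatives were one-way ANOVA as in the methods, a robust trended prior, a replicate block, array weights, centred arrays, another quantile normalization, dim rows left out, 1 row per symbol, and leaving out each sample. Protein sequences were not used here, and 2 genes counted in the lists are not reported by name. Figures were drawn with Python 3.11.15.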

Additional observations from a re-analysis of the deposited data

Results flagged for a closer look

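Among 66 groups of 4 arrays (33 named genes in PBS and in SP), 8 had an array far from the others by Dixon's test, and chance alone gives about 1 in 20 groups. In SP replicate 3, Il7r was low at 8.59 (nearest array 10.28), and Socs3 and Osm were high at 12.46 and 12.59. In SP replicate 4, Mrc1 and Ccl22 were high at 8.4 and 7.18. In PBS replicate 1, Mrc1 and Mgl2 were high at 10.01 and 7.95. In PBS replicate 2, Socs1 was low at 5.51.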

How the results depend on the processing

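Il15ra, Il2rg, Il7r and Il4ra kept their direction and call under all 16 alternatives, and Il2ra under the 15 that held it, since it is among the dim rows. Il2rb was called under 7 alternatives (up to 1.32 with array weights), and Il21r lost its call under one-way ANOVA (adjusted p = 0.0521) and without any of 3 samples. The count of genes at least 2-fold higher was between 4 and 6 (5 as reported), also without any 1 sample, and that of all rows between 3894 and 4657. Centring each array turned the direction of Il13ra1 (0.20), Akt1 (0.21), Il9r (0.28), Jak3 (0.19) and Pik3cd (0.03), none called before, and quantile normalization turned Stat3 (-0.09) and called Il13ra1 (-0.32, adjusted p = 0.0416). Leaving out 1 sample at a time gave differences from -0.22 to 0.02 for Il13ra1, from -0.15 to 0.36 for Il15 and from -0.06 to 0.05 for Il9r, and array weights gave Il9r 0.03. Of the 24 other pathway genes, 356 values stayed on their side of the threshold, 14 became calls without turning, none lost a call and 10 turned. Il9r with centred arrays, counted as turned, was also called there (0.28, limma adjusted p = 0.0482). Centred arrays and quantile normalization each gave 4 kinases and STAT factors at 2-fold in place of 2. The causes were not tested. The 2 samples of replicate 3 deviated together in part (r = 0.35 over rows). Those of replicates 1, 2 and 4 did not (r = 0.016, 0.030 and -0.27). Pairs with unlike replicate numbers were not compared, so these values have no such reference. With the replicate number as a block, 5 genes were again at least 2-fold higher, none was lower and 6 were called. There, 4324 rows were called at 2-fold in place of 4341. The block lowered the limma adjusted p of Il21r from 0.0208 to 0.00576 and made Fcer2a a call (0.0252). With 4 arrays a group, small differences such as that of Il15 are not resolved.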
